A study of Mus musculus with 9 samples.

Results

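The transcripts of 10 chemokine genes were followed across 9 cultures of mouse articular chondrocytes: Ccl2, Ccl5, Ccl7, Ccl20, Cxcl1, Cxcl2, Cxcl5, Cxcl10, Cxcl12 and Cx3cl1. They were taken by symbol, as CC, CXC and CX3C ligands, and make up 10 of the 55471 genes that the deposited tables list. The cells were primary articular chondrocytes from wild-type mice at postnatal day 5, grown on plates coated with COLpep, a collagen peptide that binds the receptor OSCAR. The cultures formed 3 groups of 3, all infected with an adenovirus. The Ad-Control group, which the sample labels name Control, received the control virus. The Ad-OSCAR group received the virus that makes the cells express OSCAR, and the Ad-OSCAR + 5-ASA group received that virus followed by the drug 5-ASA (mesalazine). The labels give 3 days of culture, 2 h of infection at 400 MOI and 36 h before the drug, and the study's methods give 2 days, 800 MOI and 24 h with or without 10 µM 5-ASA. No source used here says whether the cultures of a group came from separate animals, so p-values measure the spread between these cultures. The promoter that drives OSCAR in the virus is not given in the sources used here, and there was no group with the drug alone.

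Chemokines are small secreted proteins that guide the movement of white blood cells along a gradient, through receptors that couple to G proteins. CC ligands such as Ccl2 mainly draw monocytes and lymphocytes, the CXC ligands that carry the ELR motif, such as Cxcl1, draw neutrophils through Cxcr2, and Cxcl10 draws activated T cells through Cxcr3. Chondrocytes are known to release chemokines when they are exposed to inflammatory cytokines or matrix fragments, and chemokines are found in the joint fluid in osteoarthritis.

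RefSeq promoter sequences of GRCm38.p6, 250 bases before to 50 bases after the start of the gene, were at hand for 6 of the 10 members, and 5 are shown: the 4 with NF-kB or interferon response letters and that of Cxcl12, the gene that moved in the other direction. Letters were searched on both strands, and capitals mark a match to GGG, any 2 bases and TTTCC, a form bound by NF-kB, or to GAAA, any 2 bases and GAAA, a form bound by interferon regulatory factors. The windows are chr5:90890995-90891294 for Cxcl1, chr5:90903649-90903948 for Cxcl2, chr1:83116516-83116815 for Ccl20 and chr6:117168285-117168584 for Cxcl12, all on the plus strand, and chr5:92348840-92349139 on the minus strand for Cxcl10.
Cxcl1: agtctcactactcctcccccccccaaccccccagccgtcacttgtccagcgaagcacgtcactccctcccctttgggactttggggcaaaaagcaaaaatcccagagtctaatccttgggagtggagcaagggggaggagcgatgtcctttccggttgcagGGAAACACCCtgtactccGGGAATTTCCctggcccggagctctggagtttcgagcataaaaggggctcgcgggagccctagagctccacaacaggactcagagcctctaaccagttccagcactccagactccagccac
Cxcl2: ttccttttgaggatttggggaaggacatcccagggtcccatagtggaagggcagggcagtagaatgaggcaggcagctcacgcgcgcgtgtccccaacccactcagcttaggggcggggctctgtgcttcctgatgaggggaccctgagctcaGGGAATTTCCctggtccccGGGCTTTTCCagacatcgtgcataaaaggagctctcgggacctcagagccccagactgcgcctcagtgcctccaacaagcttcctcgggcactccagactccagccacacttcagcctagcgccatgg
Ccl20: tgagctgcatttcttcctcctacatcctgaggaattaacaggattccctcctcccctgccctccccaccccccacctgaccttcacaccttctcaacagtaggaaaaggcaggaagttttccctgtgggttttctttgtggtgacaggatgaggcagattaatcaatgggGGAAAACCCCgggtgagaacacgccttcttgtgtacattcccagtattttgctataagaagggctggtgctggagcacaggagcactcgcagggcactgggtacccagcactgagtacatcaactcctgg
Cxcl10: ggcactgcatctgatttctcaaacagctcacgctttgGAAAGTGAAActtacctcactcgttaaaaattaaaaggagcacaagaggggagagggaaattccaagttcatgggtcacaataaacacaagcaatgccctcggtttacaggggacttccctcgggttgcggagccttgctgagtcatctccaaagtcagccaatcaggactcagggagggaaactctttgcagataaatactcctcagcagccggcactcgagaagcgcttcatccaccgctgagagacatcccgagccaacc
Cxcl12: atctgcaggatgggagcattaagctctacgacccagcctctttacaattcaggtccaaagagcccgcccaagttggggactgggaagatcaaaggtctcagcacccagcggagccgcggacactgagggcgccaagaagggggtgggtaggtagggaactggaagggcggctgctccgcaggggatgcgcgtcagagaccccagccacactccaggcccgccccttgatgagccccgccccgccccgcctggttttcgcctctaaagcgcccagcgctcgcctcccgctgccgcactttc

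The NF-kB form was found in 3 of the 6 promoters, against 1.63% of all 32851 promoters of the same length. Cxcl1 held it in 2 places, from 89 to 80 and from 71 to 62 bases before the start. Cxcl2 held it in 2 places as well, from 97 to 88 and from 78 to 69 bases before the start, and Ccl20 in 1, from 80 to 71 bases before it. The interferon response form was found in Cxcl10, from 213 to 204 bases before the start, and in 3.44% of all promoters. The third form searched, TATAAA, was found in Cx3cl1, directly before the start, and in 13.6% of all promoters. No letters searched overlapped each other, and the Cxcl12 window held none of the 3. The Cx3cl1 window, not shown, also held neither the NF-kB nor the interferon response form, and Cx3cl1 rose with OSCAR. Other forms that NF-kB or interferon regulatory factors bind were not searched, so a window without a match may still hold them. A match describes letters, and no binding was measured here.

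The ends of the transcripts also differed among the members. AU-rich letters in the 3′ UTR are known to shorten the life of cytokine transcripts, and both forms were searched in the coding strand of the principal GENCODE M21 transcript. The long form, TTATTTATT, was found in 3 of the 10 members, 4 times in Cxcl2, 2 times in Cxcl1 and 1 time in Cx3cl1, against 7.12% of 20828 protein-coding genes. The short form, ATTTA, occurred 11 times in the 734 bases of Cxcl2 and 7 times in the 592 bases of Cxcl1, which is 15.0 and 11.8 per kb, and 11.1 per kb in Ccl20. Over all genes the median was 1.16 per kb. The AU-rich letters were chosen after values were seen, so these contrasts are descriptions. Ccl5 held no ATTTA in its 199 bases, and Cxcl12 held 3 in 2768 bases. The first long match in Cxcl1 and in Cxcl2 is shown with the bases around it, 30 bases in all, with the 9 letters in capitals.
Cxcl1: atttatgtatTTATTTATTccacaaagtgt
Cxcl2: gagagttcacTTATTTATTtatctatgtat

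The overexpressed gene was checked first. In Ad-Control, Oscar had 3 to 4 counts, and in Ad-OSCAR it was at 6354, 7112 and 6528 CPM (counts scaled to library size with TMM normalization). It had 3528, 2946 and 3723 CPM with 5-ASA, a log2 difference of -0.97 ± 0.065 (SE; edgeR adjusted p = 1.76e-08) from Ad-OSCAR. Oscar transcript was thus itself lower in the drug-treated cultures, and its part in the chemokine values was not tested. The libraries held 19733464 to 28192769 counts. The 9 chondrocyte markers summed to 14026 to 15978 TPM (a level scaled for transcript length and library size) in Ad-Control, 877 to 1011 TPM in Ad-OSCAR and 975 to 1161 TPM with 5-ASA, so the chondrocyte marker transcripts were far lower in both groups that received the OSCAR virus. In bulk RNA, fewer cells of a type and less RNA per cell cannot be told apart.

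Most leukocyte, T cell, neutrophil and endothelial markers were near 0, and the fibroblast and synovial lining markers were not. Of the leukocyte markers, Ptprc had 0 to 2 counts in all 9 cultures, Itgam 0 to 2, Adgre1 0 to 3 and Tyrobp 0 to 2, and 4 of the 10 in the list had over 3 counts in every Ad-OSCAR culture. The list summed to 19.7 to 24.3 TPM in Ad-Control, 48.1 to 49.9 TPM in Ad-OSCAR and 36.7 to 39.3 TPM with 5-ASA, most of it from Cd14, Cd68 and Lyz2. The T cell markers Cd3e and Cd3g were at 0 counts in every culture, and the list of 5 summed to at most 5.24 TPM. Among the 5 neutrophil markers, S100a9 was at 0 in every culture, and S100a8 carried the sum of 0.92 to 3.16, 47.0 to 49.3 and 23.3 to 32.6 TPM in the 3 groups. The 6 endothelial markers summed to at most 1.37 TPM. The 6 fibroblast and synovial lining markers summed to 6605 to 6811, 8558 to 9025 and 9498 to 9583 TPM in the 3 groups. Its genes did not move together, since Dcn went from 1745 to 3826 TPM, Col3a1 from 2015 to 3503 TPM and Prg4 from 149 to 531 TPM with OSCAR, while Col1a1 went from 2728 to 874 TPM, Pdgfra from 86.3 to 65.9 TPM and Thy1 from 18.7 to 4.41 TPM. The part of the chondrocyte, leukocyte, neutrophil and fibroblast markers in the chemokine values was not tested.

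**Figure D1:**
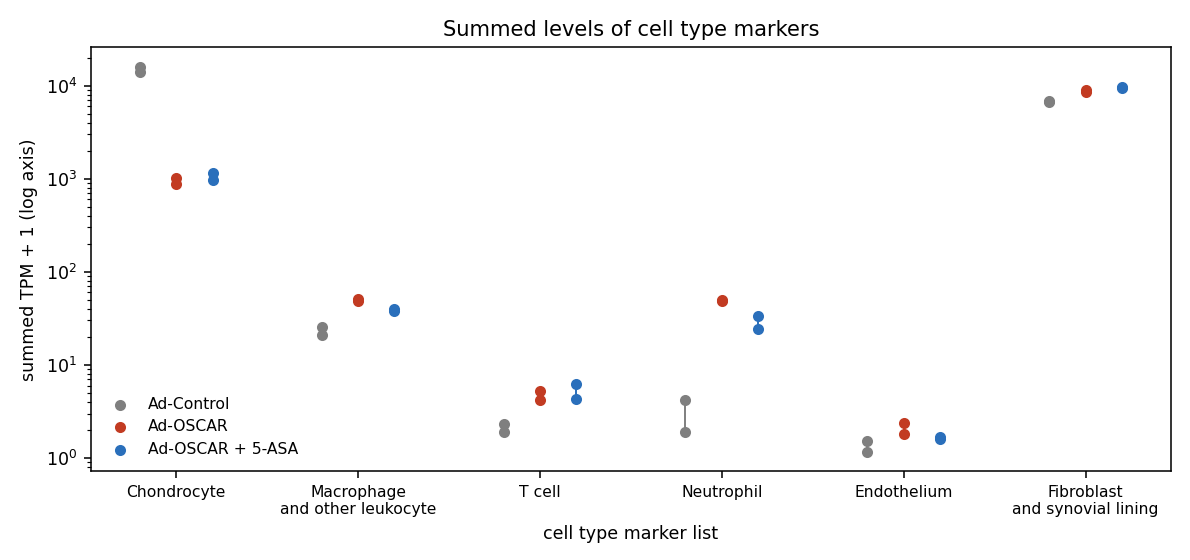
Lowest and highest summed level of 6 cell type marker lists over the 3 cultures of each group, in TPM + 1 on a log axis. The chondrocyte sum was 14026 to 15978 TPM in Ad-Control and 877 to 1011 TPM in Ad-OSCAR, and the T cell and endothelial sums did not exceed 5.24 TPM.

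All 10 chemokines were above detection in every culture, with at least 8 counts. In Ad-Control cultures Cxcl5 had the highest level per length (1691 TPM), followed by Cxcl1 (902), Ccl2 (584), Ccl7 (474) and Cxcl12 (251 TPM). Ccl20 and Cx3cl1 followed at 31.1 and 28.7 TPM with overlapping values, then Cxcl2 at 11.1, Ccl5 at 7.27 and Cxcl10 at 1.85 TPM. In Ad-OSCAR cultures Cxcl1 led at 9294 TPM, rank 9 of all genes, with Cxcl5 (6644), Ccl2 (2957) and Ccl7 (1396 TPM) after it. Cxcl2 (481) and Ccl20 (415) came next, then Ccl5 (180) and Cx3cl1 (163 TPM), which overlapped. Cxcl12 at 72.1 and Cxcl10 at 22.4 TPM were lowest. With 5-ASA the order was Cxcl1 (8606), Cxcl5 (7035), Ccl2 (2665), Ccl7 (1420), Ccl20 (592), Cxcl2 (420), Ccl5 (313), Cx3cl1 (209), Cxcl12 (114) and Cxcl10 (13.8 TPM), and no neighbours overlapped.

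Summed over the 10 genes, the level was 3983 ± 156 TPM (SD, n = 3) in Ad-Control, 21624 ± 117 TPM in Ad-OSCAR and 21388 ± 574 TPM with 5-ASA. Their share of all counts was 0.250 to 0.266%, 1.28 to 1.31% and 1.25 to 1.37% in these groups. Cxcl1 and Cxcl5 together held 63.9 to 65.9% of the summed TPM in Ad-Control and 73.0 to 74.6% in Ad-OSCAR. The level of Cxcl1 relative to Cxcl5 was 0.512 to 0.561 in Ad-Control, 1.26 to 1.54 in Ad-OSCAR and 1.20 to 1.26 with 5-ASA, so Cxcl5 was the more abundant of these neutrophil attractants in Ad-Control and Cxcl1 in both other groups.

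**Figure D2:**
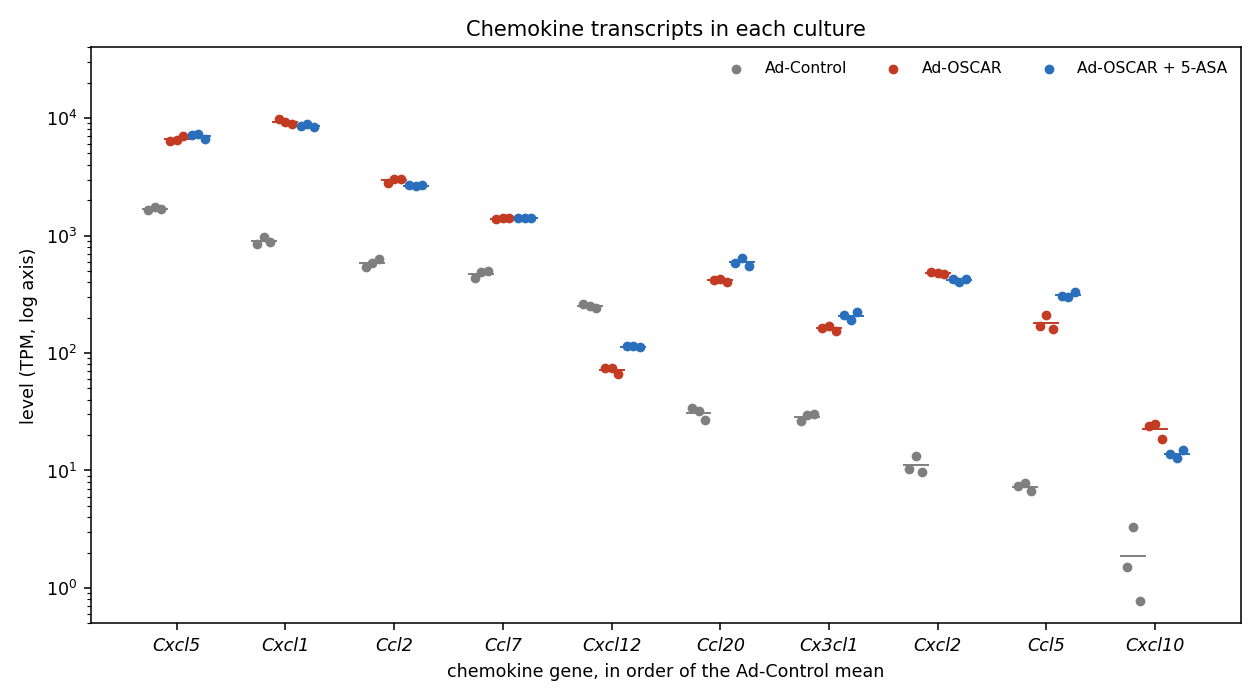
Level of each of the 10 chemokine genes in each of the 9 cultures, in TPM on a log axis, with a line at the mean of the 3 cultures of a group. In the plot 9 genes were higher in all Ad-OSCAR cultures than in all Ad-Control cultures, and Cxcl12 was lower.

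OSCAR overexpression was compared with the control virus to ask which chemokines change with OSCAR. Of the 10 members, 9 were upregulated in Ad-OSCAR and 1, Cxcl12, was downregulated (edgeR quasi-likelihood test, adjusted p below 0.05). All 10 also passed the study's limit, an absolute log2 fold change over 1.5. By the adjusted p alone, 32.7% of the 15362 genes tested were higher and 32.2% lower. By the study's limit 4.56% were higher and 5.39% lower. For each of the 10 members, the Ad-OSCAR and Ad-Control values did not overlap. Of all genes tested, 35.0% were higher and 34.0% lower without overlap. The median log2 fold change of the members was 2.90, against 0.02 over all genes tested. The members and lists were chosen with earlier results of these data known. Their shares and medians beside all genes, here and below, are therefore descriptions and not tests.

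Among the CC ligands of the 10 members, Ccl5, which draws T cells and monocytes, changed most. Ccl5 was at 1.51, 1.60 and 1.37 CPM in Ad-Control, at 35.1, 43.9 and 32.4 CPM in Ad-OSCAR and at 67.4, 65.7 and 68.9 CPM with 5-ASA. The 3 groups did not overlap in any pair, and the drug-treated cultures were the highest. With OSCAR, Ccl5 rose by 4.62 ± 0.14 (SE) on the log2 scale, or 24.5-fold, with an adjusted p of 2.46e-15 from edgeR. The control level rested on 26 to 39 counts per culture. Ccl20, the ligand of Ccr6, which draws Th17 and dendritic cells, was at 12.7, 12.2 and 10.4 CPM in Ad-Control, at 156, 163 and 151 CPM in Ad-OSCAR and at 235, 260 and 215 CPM with 5-ASA. Its groups also kept apart, in the same order as those of Ccl5. Ccl20 rose by 3.73 ± 0.081 on the log2 scale with OSCAR, or 13.3-fold (edgeR adjusted p = 2.88e-17).

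The monocyte attractants Ccl2 and Ccl7, which share the receptor Ccr2, started from far higher levels and changed less. Ccl2 was at 205, 221 and 243 CPM in Ad-Control, at 1058, 1159 and 1117 CPM in Ad-OSCAR and at 1076, 1059 and 1041 CPM with 5-ASA. Every culture with OSCAR was above every control culture, and the cultures with and without the drug overlapped. Ccl2 rose by 2.32 ± 0.056 on the log2 scale with OSCAR, or 4.98-fold (edgeR adjusted p = 1.16e-16). Ccl7 was at 161, 180 and 184 CPM in Ad-Control, at 502, 523 and 503 CPM in Ad-OSCAR and at 554, 556 and 532 CPM with 5-ASA. The log2 fold change of Ccl7 was 1.54 ± 0.050, or 2.91-fold (edgeR adjusted p = 8.32e-15), close to the study's limit, and it was 1.48, under that limit, without Ad-Control replicate 1. The level of Ccl2 relative to Ccl7 in TPM was 1.19 to 1.28 in Ad-Control and 2.05 to 2.16 in Ad-OSCAR.

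Among the CXC ligands with the ELR motif, Cxcl2 had the largest log2 fold change of the 10 members. Cxcl2 was at 4.58, 5.34 and 4.60 CPM in Ad-Control, at 233, 236 and 227 CPM in Ad-OSCAR and at 215, 206 and 208 CPM with 5-ASA. The drug-treated cultures were all just under the untreated Ad-OSCAR cultures, and both were far above the controls. Cxcl2 rose by 5.58 ± 0.066 on the log2 scale with OSCAR, or 47.7-fold (edgeR adjusted p = 9.32e-21). Cxcl1 was at 410, 469 and 431 CPM in Ad-Control, at 4588, 4386 and 4076 CPM in Ad-OSCAR and at 4323, 4450 and 4034 CPM with 5-ASA. The cultures with and without the drug overlapped. The log2 fold change of Cxcl1 with OSCAR was 3.32 ± 0.058, or 9.96-fold (edgeR adjusted p = 1.87e-18).

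Cxcl5, the most abundant of the members in the control cultures, was at 1417, 1475 and 1448 CPM in Ad-Control, at 5301, 5591 and 5805 CPM in Ad-OSCAR and at 6470, 6562 and 5802 CPM with 5-ASA. The highest Ad-OSCAR culture lay above the lowest drug-treated one, and both groups lay above the controls. Cxcl5 rose by 1.94 ± 0.048 on the log2 scale with OSCAR, or 3.85-fold (edgeR adjusted p = 1.61e-16). Among these 3 neutrophil attractants the fold change was smallest for the gene with the highest control level and largest for the gene with the lowest. Cxcl1 and Cxcl2 have the close paralog Cxcl3, and the estimated counts of Cxcl2 and Cxcl3 were not whole numbers in any culture but Ad-Control replicate 3. RSEM divides reads that match more than 1 gene, and part of their reads could be split between them.

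Cxcl10, a ligand of Cxcr3 that interferons induce, had the lowest level. Cxcl10 was at 0.897, 1.19 and 0.423 CPM in Ad-Control, at 10.0, 10.6 and 10.0 CPM in Ad-OSCAR and at 7.27, 7.52 and 7.43 CPM with 5-ASA. The 3 groups did not overlap, with the drug-treated cultures between the others. Cxcl10 rose by 3.55 ± 0.17 on the log2 scale with OSCAR, or 11.7-fold (edgeR adjusted p = 2.75e-12), on 8 to 29 counts per control culture. Cxcl10 lies within Art3 on the opposite strand, which had 0 to 8 counts, and Ccl2 overlaps Gm17268 on the opposite strand, which had 0 counts in every culture.

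Cxcl12, which retains stem cells and lymphocytes in tissue through Cxcr4, was the member that fell with OSCAR. Cxcl12 was at 362, 342 and 337 CPM in Ad-Control, at 103, 108 and 93.7 CPM in Ad-OSCAR and at 170, 169 and 162 CPM with 5-ASA. The drug-treated cultures lay between the others, and no groups overlapped. The log2 fold change with OSCAR was -1.77 ± 0.054, or 0.293-fold (edgeR adjusted p = 2.93e-15). The ratio of Cxcl12 to Cxcl1 in TPM was 0.257 to 0.306 in Ad-Control and 0.0075 to 0.0082 in Ad-OSCAR.

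Cx3cl1, or fractalkine, is the CX3C ligand, a transmembrane protein that can be shed by Adam10 and Adam17. Cx3cl1 was at 50.1, 51.7 and 56.0 CPM in Ad-Control, at 291, 312 and 278 CPM in Ad-OSCAR and at 420, 371 and 420 CPM with 5-ASA. All cultures of one group lay above all cultures of the group before it. Cx3cl1 rose by 2.48 ± 0.064 on the log2 scale with OSCAR, or 5.58-fold (edgeR adjusted p = 2.62e-16).

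**Figure D3:**
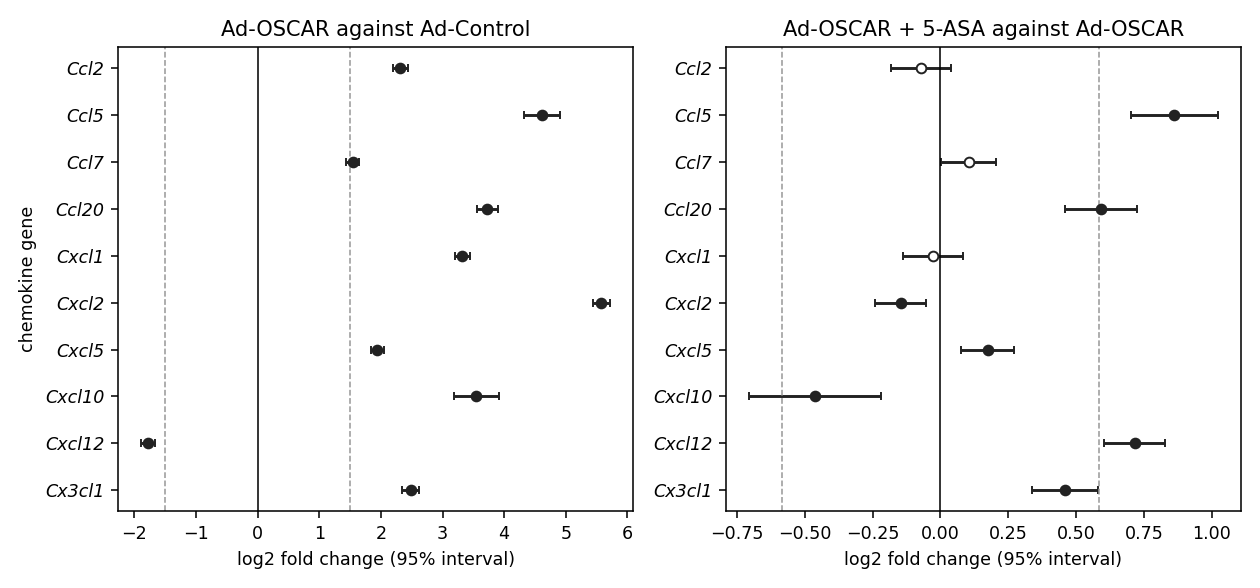
Log2 fold change of the 10 chemokine genes in both comparisons, with 95% intervals from the edgeR fit, filled where the adjusted p was below 0.05 and dashed at the study's fold limits. With OSCAR the values ran from -1.77 (Cxcl12) to 5.58 (Cxcl2), and with 5-ASA added from -0.46 (Cxcl10) to 0.86 (Ccl5), on a different axis range.

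The drug was compared with no drug in Ad-OSCAR cultures to ask which chemokines change with 5-ASA. The same 3 Ad-OSCAR cultures stand in both comparisons, so errors in them enter both. By adjusted p, 5 members were higher with 5-ASA, 2 were lower and 3 did not pass, against 10.4% of all genes higher and 7.38% lower. Over all genes edgeR called 1598 higher and 1134 lower, whereas limma on log2(TPM + 1) called 562 higher and 1487 lower, and 4 members higher and 0 lower. The study set a limit for the drug-treated cultures against Ad-Control, a fold over 1.5 with an unadjusted p below 0.05, and it is applied here to the drug against Ad-OSCAR as well. By that limit 3 were higher and 0 lower, against 2.27% and 1.87% of all genes. The median log2 fold change of the members was 0.14. Of the 10 members, Ccl5, Ccl7, Ccl20, Cxcl12 and Cx3cl1 were higher and Cxcl2 and Cxcl10 lower without overlap of the cultures, against 17.8% of all genes higher and 16.1% lower.

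Past that limit were Ccl5, Cxcl12 and Ccl20. Ccl5 was higher by 0.86 ± 0.076 on the log2 scale, or 1.82-fold (edgeR adjusted p = 3.64e-07), further from the control level than without the drug. Cxcl12 was higher by 0.72 ± 0.053, or 1.64-fold (edgeR adjusted p = 5.96e-08), which left it at 0.481 of the Ad-Control level. Ccl20 was higher by 0.59 ± 0.063, or 1.51-fold (edgeR adjusted p = 3.39e-06), close to the limit, and its log2 fold change was 0.56 without Ad-OSCAR replicate 3 and 0.52 without Ad-OSCAR + 5-ASA replicate 2, and 0.51 with limma on log2(TPM + 1). All 3 are under the limit, the first 2 with adjusted p of 5.58e-05 and 1.04e-05 from edgeR. Cx3cl1 was higher by 0.46 ± 0.058, or 1.38-fold (edgeR adjusted p = 1.8e-05). Cxcl5 was higher by 0.17 ± 0.046, or 1.13-fold (edgeR adjusted p = 0.0136), with overlapping cultures, and its call was lost without Ad-OSCAR replicate 1 or Ad-OSCAR + 5-ASA replicate 1 or 2, with adjusted p of 0.0546 to 0.1.

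The 2 members that fell with 5-ASA were Cxcl10 and Cxcl2. Cxcl10 was lower by a log2 difference of -0.46 ± 0.12, or 0.726-fold (edgeR adjusted p = 0.00888). Cxcl2 was lower by -0.15 ± 0.045, or 0.903-fold (edgeR adjusted p = 0.0303), and this call was lost when any 1 of the Ad-OSCAR + 5-ASA cultures, or Ad-OSCAR replicate 1 or 2, was left out, with adjusted p of 0.0528 to 0.0841. For the members that did not pass the test, the 95% interval of the fold change was 0.882 to 1.03 for Ccl2, 0.909 to 1.06 for Cxcl1 and 1.00 to 1.15 for Ccl7. The level of Ccl5 relative to Cxcl10 was 7.10 to 8.67 in Ad-OSCAR and 22.3 to 23.3 with 5-ASA, on the TPM scale.

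Against Ad-Control, the drug-treated cultures had 9 members higher and 1, Cxcl12, lower, by adjusted p and by the limit the study set for the drug, where 31.4% and 31.8% of genes were higher and lower by adjusted p and 14.6% and 15.3% by that limit. The log2 fold changes ran from 1.64 for Ccl7 to 5.48 for Ccl5 among the 9 and were -1.06 ± 0.052 for Cxcl12. The order of size had changed at the top: Ccl5 (44.6-fold) stood beside Cxcl2 (43.1-fold), while Cxcl10 stood at 8.51-fold.

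The remaining chemokine ligands showed which of the family were detected in the cultures at all. Of 28 further ligand genes, 15 had at most 3 counts in every culture, among them 7 at 0, and 11 could be tested. With OSCAR, 7 of the 11 were higher and 3 lower by adjusted p, against 32.7% and 32.2% of all genes. Past the study's limits, Cxcl3, a paralog of Cxcl1, rose by 3.17 ± 0.049 on the log2 scale, from 109 to 983 CPM. Cxcl9, a Cxcr3 ligand also past them, had 0 to 2 counts in Ad-Control and 18 in each Ad-OSCAR culture. The call of Cxcl9 by adjusted p was lost in 1 of 15 alternative settings. Ccl3, a Ccr1 ligand, had 0 counts in each Ad-Control culture and 19 to 24 in Ad-OSCAR, at least 5.88-fold higher when 3 counts are assumed per control culture. Cxcl14, an epithelial and mesenchymal chemokine, fell by 2.31 ± 0.097 on the log2 scale and Ccl9 fell by 1.83 ± 0.13. With 5-ASA, 3 of the 11 were higher and 0 lower by edgeR, against 10.4% and 7.38% of all genes. They were Cxcl14 at 0.80 ± 0.11, past the study's limit, Ccl9 at 0.57 ± 0.15 and Ccl28 at 0.54 ± 0.16. Ccl9 lost its call without replicate 1 of either group (edgeR adjusted p of 0.0737 and 0.0608), and Ccl28 without Ad-OSCAR replicate 1 or 3 or Ad-OSCAR + 5-ASA replicate 1 or 2 (0.0692 to 0.149). Both Cxcl12 and Cxcl14 thus fell with OSCAR and were higher with 5-ASA, while Cxcl15 fell with OSCAR by 1.29 ± 0.25.

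The receptors of these ligands had few or no counts. Of 18 chemokine receptor genes, 10 had at most 3 counts in every culture, among them 7 at 0 in all 9, including Ccr2, Ccr6 and Cxcr3, the receptors of Ccl2, Ccl20 and Cxcl10. Cxcr4, the receptor of Cxcl12, had 0 to 5 counts, Cxcr2 had 0 to 2 and Cx3cr1 had 0 to 1. At this depth a count of 0 allows up to 3 counts, or 0.106 to 0.152 CPM. Ccr10 was the single receptor gene tested, at 2 to 6 counts in Ad-Control and 10 to 21 in Ad-OSCAR, and its call with OSCAR (edgeR adjusted p = 0.00757) was lost without Ad-OSCAR replicate 1 (0.0533). Among the 6 atypical receptors, which bind chemokines without coupling to G proteins, Ackr3, which takes up Cxcl12, was well expressed. Ackr3 was at 125 CPM in Ad-Control, 106 CPM in Ad-OSCAR and 124 CPM with 5-ASA, with log2 differences of -0.25 ± 0.052 with OSCAR and 0.23 ± 0.052 with 5-ASA. The 5-ASA call of Ackr3 was lost in 1 of 16 alternative settings, over which its log2 difference went down to 0.11. Ackr2 had 0 to 1 counts in Ad-Control and 13 to 18 in Ad-OSCAR, and Ccrl2 had 0 to 1 and 10 to 11.

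Enzymes that trim or shed chemokines also moved. With OSCAR, 4 of the 6 were higher and 2 lower by adjusted p, against 32.7% and 32.2% of all genes. Mmp12, a metalloelastase that clips ELR chemokines, was at 0.879 CPM in Ad-Control, 29.3 CPM in Ad-OSCAR and 11.9 CPM with 5-ASA (edgeR adjusted p = 5.25e-16 and 1.35e-08). Mmp9, which clips Cxcl5, rose by 2.82 ± 0.16 with OSCAR and was a further 0.61 ± 0.10 higher with 5-ASA. Dpp4, which clips Cxcl10 and Cxcl12, fell by 1.67 ± 0.26 with OSCAR. The sheddases of Cx3cl1 changed by less, Adam10 by -0.29 ± 0.050 and Adam17 by 0.22 ± 0.045 with OSCAR. Mmp2, which clips Cxcl12, rose by 0.54 ± 0.045 with OSCAR and was 0.37 ± 0.044 higher with 5-ASA.

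A list of 20 genes that induce or restrain chemokine transcription, of which 16 were tested, had 14 higher and 0 lower with OSCAR by edgeR's adjusted p, against 32.7% of all genes higher. Il6 rose from 52.9 to 1061 CPM (log2 4.32 ± 0.077). Irf7 rose by 1.90 ± 0.17, Nfkbia by 1.69 ± 0.058, Nfkbiz by 2.09 ± 0.044, Tnfaip3 by 2.42 ± 0.060 and Zc3h12a by 1.86 ± 0.049, and the last 4 are known as genes that NF-kB induces and that in part restrain it. Il1a went from 1 to 3 counts in Ad-Control to 135 to 159 counts in Ad-OSCAR. Tnf had 0 counts in Ad-Control and 8 to 15 in Ad-OSCAR, and Ifnb1 was at 0 in every culture. With 5-ASA 6 of the 16 were lower and 0 higher by edgeR, against 7.38% of all genes lower. Among them Irf7 fell by 0.59 ± 0.14, Il1a by 0.42 ± 0.14, Il6 by 0.21 ± 0.065, Nfkb2 by 0.20 ± 0.056 and Irf3 by 0.16 ± 0.051, and DESeq2 left 3 of the 6. The call of Il1a was lost without any 1 of the Ad-OSCAR cultures or without Ad-OSCAR + 5-ASA replicate 1 or 3 (edgeR adjusted p of 0.0828 to 0.195). Il6 lost its call without Ad-OSCAR replicate 1 or 3 or Ad-OSCAR + 5-ASA replicate 1 or 3 (0.1 to 0.149), Irf3 without replicate 1 or 2 of either group (0.061 to 0.129), and Nfkb2 without replicate 2 of either group (0.0502 and 0.0872). Irf7, which acts in the interferon response, kept its call with any 1 culture left out.

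Several members lie beside each other in the genome (GENCODE M21). Cxcl5 is at chr5:90759360-90761624, Cxcl1 at chr5:90891241-90893115 and Cxcl2 at chr5:90903871-90905938, all on the plus strand. Ccl2 is at chr11:82035571-82037453 and Ccl7 at chr11:82045712-82047525 on the plus strand, and Ccl5 at chr11:83525778-83530518 on the minus strand. Cxcl10 is at chr5:92346638-92348889 on the minus strand, Ccl20 at chr1:83116766-83119167, Cxcl12 at chr6:117168535-117181367 and Cx3cl1 at chr8:94772009-94782427 on the plus strand. The chromosome 5 cluster holds, in order, Cxcl5, Ppbp, Pf4, Cxcl3, Cxcl15, Cxcl1 and Cxcl2 over 146.6 kb (GRCm38). Its members were unequal, since Cxcl5, Cxcl3, Cxcl1 and Cxcl2 rose with OSCAR while Cxcl15 fell and Ppbp, at 3.37 and 2.61 CPM, did not pass the test (edgeR adjusted p = 0.0918). On chromosome 11, Ccl2 and Ccl7 are followed by Ccl11, Ccl12, Ccl8 and Ccl1, which had at most 2 counts in any culture. In the second cluster of chromosome 11, Ccl5 rose while its neighbour Ccl9 fell. Cxcl10 lies between Cxcl9 and Cxcl11 on chromosome 5, and Cxcl11 had 0 to 1 counts. Cx3cl1 lies between Ccl22 and Ccl17 on chromosome 8, which had at most 1 and 10 counts. Ccl20 on chromosome 1 and Cxcl12 on chromosome 6 had no other ligand of the lists within 1 Mb.

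**Figure D4:**
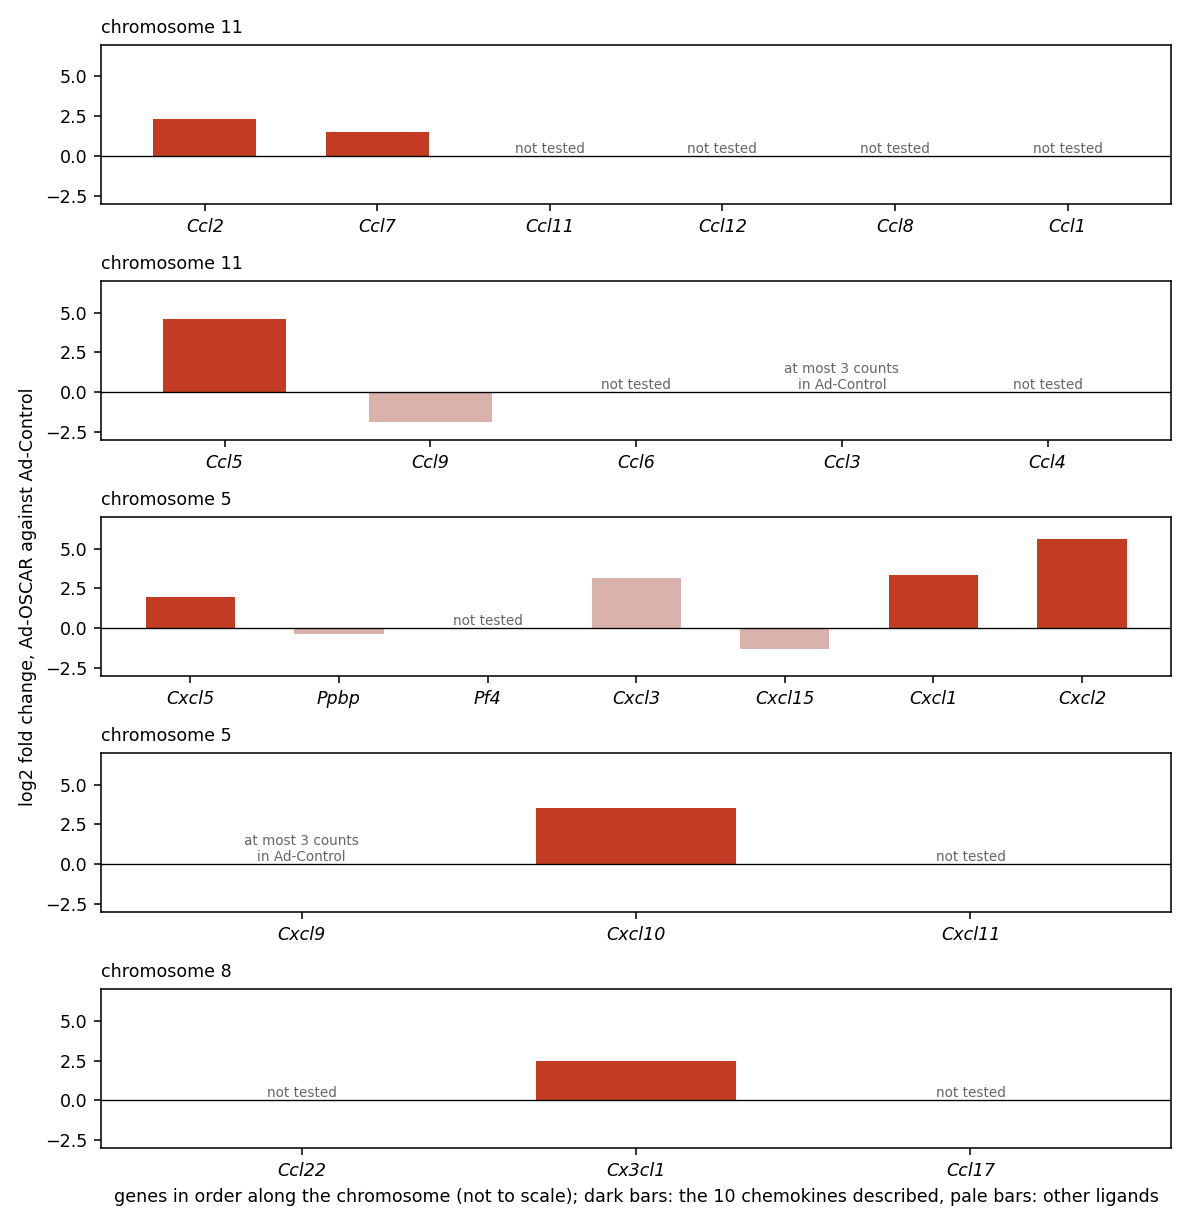
Log2 difference between Ad-OSCAR and Ad-Control cultures for the ligand genes of 5 clusters, in genome order and not to scale, with the 10 chemokines in dark and other ligands in pale bars. In the chromosome 5 cluster that holds Cxcl5, Cxcl1 and Cxcl2, the bars run from 5.58 (Cxcl2) to -1.29 (Cxcl15). Genes that were too low to test are marked. Ccl3 and Cxcl9 were tested, but they carry a label in place of a bar, as they had at most 3 counts in Ad-Control.

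Patterns over the cultures were compared last, as a description with no test. Each member was also set beside the other tested gene that was nearest in pattern, by the root mean square difference of log2 CPM over the 9 cultures after centring each gene, among 13252 genes with a mean of at least 1 CPM. The nearest to Cxcl1 was Cxcl3, at 0.094 on the log2 scale. Others were Pla2g4a for Ccl2 (0.076), Errfi1 for Ccl7 (0.056), Abi3bp for Cxcl12 (0.052) and Adra2a for Cx3cl1 (0.066). Pim2 was nearest to Ccl20 (0.135), Lif to Cxcl2 (0.142), Arrdc4 to Cxcl5 (0.086), Pthlh to Cxcl10 (0.185) and Il12b to Ccl5 (0.264). Lif, a cytokine of the interleukin 6 family, rose by 5.84 ± 0.072 on the log2 scale with OSCAR. Ccl5 and Cxcl10 had the least similar nearest genes.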

How the data were processed

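RNA of 9 cultures was measured, 3 in each group. According to the study's methods and the submitters' processing notes, the authors trimmed stranded 2 × 100 base reads with BBDuk, aligned them to GRCm38 with STAR 2.7.1a and quantified genes with RSEM 1.3.1. The study's reporting summary names Gencode v22 and an earlier RSEM version for TPM. Which strand option RSEM was run with is not given in the sources used here. The authors deposited estimated counts (RSEM expected counts, which need not be whole and are not scaled) and TPM for 55471 genes. FPKM columns were not used here.

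Counts were rounded to whole numbers. Between 8.97% and 10.1% of genes per culture were not whole before rounding. Totals were 19733464 to 28192769, and 3 counts were taken as the smallest level shown, which covers counting error only. Symbols and positions came from GENCODE M21 and matched tables (55144 genes with a symbol). edgeR 4.0.16 in R 4.3.3 was run on all 9 cultures (TMM, filterByExpr, quasi-likelihood test, group only), which left 15362 genes, with Benjamini-Hochberg adjustment over them and calls at 0.05. The study's limits were an absolute log2 fold change over 1.5 with an adjusted p below 0.05 for OSCAR, and an absolute fold over 1.5 with an unadjusted p below 0.05 for 5-ASA, which the study set against Ad-Control and which was applied here to both 5-ASA comparisons. SE is that of the log2 fold change. The scripts were tested on simulated counts.

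Named genes were all 10 members, genes of the lists past those limits or called by adjusted p, the nearest gene in pattern, and Oscar. Some genes of the lists are counted but not reported here by name. Ppbp, untested low genes and the AU-rich letters were chosen after values were seen. The members and lists were chosen with earlier results of these data known. Alternatives were DESeq2 1.42.0, RLE normalization, no filter, at least 10 counts in every culture, the 2 groups compared only, the replicate number as a block, limma 3.58.1 on log2(TPM + 1), and each culture left out.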

Additional observations from a re-analysis of the deposited data

How the results depend on the processing

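With OSCAR, each of the 10 members kept its direction and adjusted p below 0.05 in every alternative that tested it. At least 10 counts in every culture removed Cxcl10. With 5-ASA, the count of members lower by adjusted p was 2, against 1 where every culture had to hold at least 10 counts, 1 with the replicate block, 0 with limma on log2(TPM + 1) and 1 to 2 with each culture left out. The count higher was 5, against 4 with limma and 4 to 5 with each culture left out. By the study's limits the count of lower members was 0, and 1 with limma on log2(TPM + 1), where Cxcl10 was at -0.65 (adjusted p = 0.121). The count higher by these limits was 3, against 2 with limma and 2 to 3 with each culture left out, as Ccl20 came under the limit. Cxcl2 and Cxcl5 lost their calls with limma on TPM (adjusted p = 0.167 and 0.37) and Cxcl5 also without Ad-OSCAR replicate 1 or Ad-OSCAR + 5-ASA replicate 1 or 2 (adjusted p of 0.0546 to 0.1). The 5-ASA log2 fold change of Cxcl1, -0.03, ran from -0.075 to 0.0125 with each culture left out, and was 0.0093 without Ad-OSCAR replicate 1 and 0.0125 without Ad-OSCAR + 5-ASA replicate 3, and that of Ccl9, 0.57, to -0.0412 with limma on TPM. The cause was not tested. Of 477 member values under 16 alternatives, 463 kept direction and side of the threshold, 12 lost the call and 2 turned.

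No pairing of the cultures by replicate number was detected, and with 3 cultures per group a small shared effect could be missed. Same-numbered cultures had correlations of their deviations from -0.0723 to 0.0396, and 0 of 9 correlated best with their own number. With the replicate block, Cxcl2 with 5-ASA had a log2 fold change of -0.15 (adjusted p = 0.0503), and no other member's call changed. Among the 16 inducers and regulators tested, 6 were lower with 5-ASA, against 3 by DESeq2 and 3 without Ad-OSCAR replicate 1. Over all genes, 1598 were higher and 1134 lower with 5-ASA, and 562 higher and 1487 lower with limma on log2(TPM + 1), where the median over all genes was -0.08. The count lower was 736 without Ad-OSCAR replicate 1 and 721 without Ad-OSCAR + 5-ASA replicate 1.

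Genes of the other lists were recomputed one by one only in comparisons in which they were called, beside Cxcl3 and Ppbp. Their uncalled values are not reported, and some of those with 5-ASA, near 0, turned under other settings. This choice was made after the values were seen.

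Low counts limit Cxcl10, Ccl5 and Cxcl2 in Ad-Control.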
